A study of Arabidopsis halleri with 24 samples.

Results

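The plant cell wall genes described here are 52 probe sets whose single gene symbol places them, by its letters and number, in a family of wall-loosening, wall-building or wall-trimming proteins. They were taken from 22746 probe sets of the ATH1 array, after 58 symbols had matched the family names, 4 probe sets with several symbols had been left out, and EXPA7 and EXPA18 had been excluded by name. The members were 16 expansins, 9 xyloglucan endotransglucosylase/hydrolases (XTH), 8 cellulose synthase-like genes (CSL), 15 endoglucanases of glycoside hydrolase family 9 (GH9), PME61, GAUT15, PRP39 and PRP39-2. The last 2 go against the name of the group: PRP39 and PRP39-2 are named for a pre-mRNA processing factor of the spliceosome, not for a proline-rich wall protein, so the main counts of calls are also given for the other 50. No CESA, AGP, FLA, EXT or GATL symbol was among the members, and those families were not analysed here.

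The arrays held total RNA recorded as from Arabidopsis halleri, a zinc-hyperaccumulating relative of A. thaliana, hybridised to probes designed on A. thaliana. There were 8 groups of 3 arrays: whole root systems and rosette leaves of an accumulating bulk on high-zinc medium, the same bulk on control medium, a non-accumulating bulk on high-zinc medium, and that bulk on control medium. The high-zinc groups had 25 µM zinc in their treatment label, and all groups shared full mineral medium and 10 h of light. The bulks are known to be pools of progeny from a cross of A. halleri with the non-accumulating A. petraea, a parentage the titles do not give, so a bulk is a mixture of genotypes. The comparisons ask how these genes differ between organs, between bulks and between the zinc media. Nothing in the labels ties the replicates to separate plants, and the p-values then reflect the spread among these arrays alone, which may be technical.

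The growing wall is a mesh of cellulose tied by xyloglucan and mannan and set in pectin. Expansins loosen it without cutting the polymers, XTH enzymes cut and rejoin xyloglucan, and GH9 endoglucanases cut unsubstituted glucan chains. CSLC proteins make the glucan backbone of xyloglucan, CSLA proteins make mannan chains, and CSLD proteins make glucan at sites such as growing root hairs. Pectin methylesterases (PME) strip methyl groups from pectin, and GAUT proteins belong to a family of galacturonosyltransferases that build it.

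The organ labels matched their markers. PYK10, a root beta-glucosidase, gave 1160 to 2257 in root arrays against 26.5 to 61.9 in leaf arrays, and the summed signal of 6 photosynthesis genes lay between 113 and 370 in roots, against 7133 to 24892 in leaves. The leaf arrays of replicate 3 stood apart: arrays of a group correlated at 0.935 to 0.961 in roots but at 0.868 to 0.963 in leaves, and a replicate 3 term passed for 22.8% of 12685 probe sets in leaves against 1.56% of 12489 in roots. The main leaf results are given with and without those arrays. One irregular label concerned the non-accumulating control roots: the source name of replicate 1 read halleri, where those of the other 23 arrays named a bulk. It was kept in the group of its title.

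Of the 52 members, 37 entered the comparison of organs, 32 the root comparisons and 30 the leaf comparisons, because a probe set was tested only where its highest group mean, on the log2(signal + 16) scale, lay above a signal of 54.8 over all arrays, 56.3 in roots or 53.3 in leaves. The 15 members below that level in every group were CSLA03, EXLA1, EXLA2, EXLA3, EXPA21, EXPA24, GH9A4, GH9B5, GH9B6, GH9B11, GH9B12, GH9B17, XTH21, XTH29 and PRP39-2. Among these, the dimmest by its highest group mean was EXPA21 at 6.86, and the brightest was GH9B12 at 53.2, just below the level. Just above it were XTH20 at 55.0 and CSLC12 at 56.9. A low signal can come from little transcript or from probes that bind A. halleri poorly, and these were not told apart, so levels are compared only within a probe set.

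**Figure D1:**
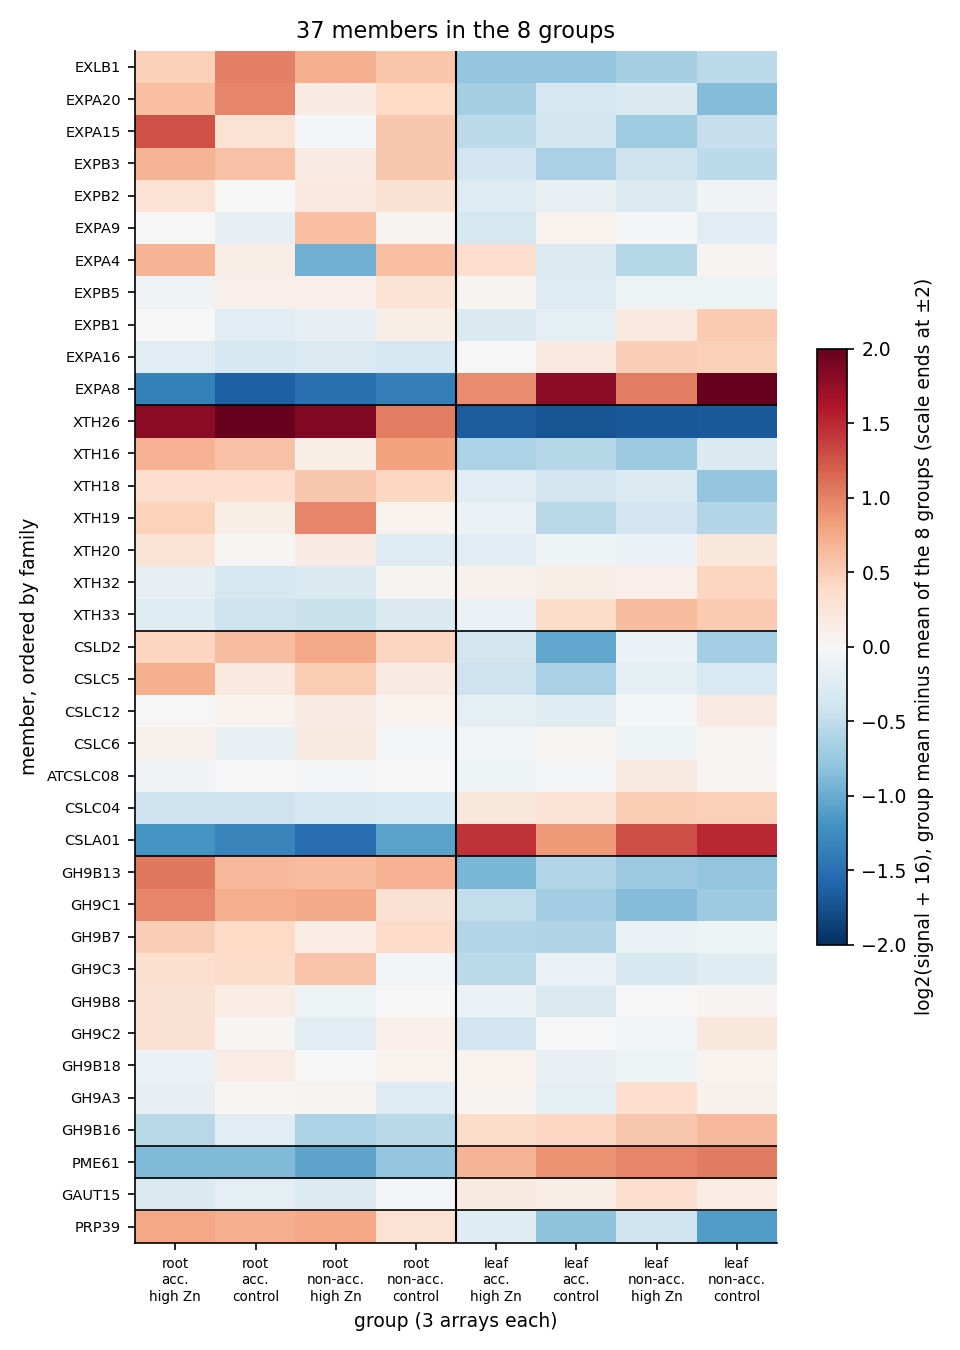
Mean log2(signal + 16) of the 37 tested members in each of the 8 groups of 3 arrays, as the difference from the member's own mean over the groups (colour, scale ending at ±2); rows run by family and columns give roots on the left and leaves on the right. The root and leaf columns differ most for XTH26, EXPA8, CSLA01 and PME61.

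The families held members that were higher in roots beside members that were lower there. In roots, 16 of the 37 tested members rose and 9 fell relative to leaves (limma, Benjamini-Hochberg adjusted p under 0.05), which is 67.6% called, against 67.9% of all 14399 probe sets tested, 40.5% of them higher and 27.4% lower. Without the splicing genes, 24 of 36 were called. By the shares of 67.6% and 67.9%, the families as a whole were called about as often as other genes. The median log2 difference, root minus leaf, was 0.20 over the tested members and 0.13 over all probe sets tested. Changes in both directions stood side by side within a family: 5 expansins rose and 2 fell of 11 tested, 4 XTH genes rose and 2 fell of 7, 2 CSL genes rose and 2 fell of 7, and 4 GH9 genes rose and 1 fell of 9. In whole organs, fewer cells of a type and less RNA per cell cannot be told apart.

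**Figure D2:**
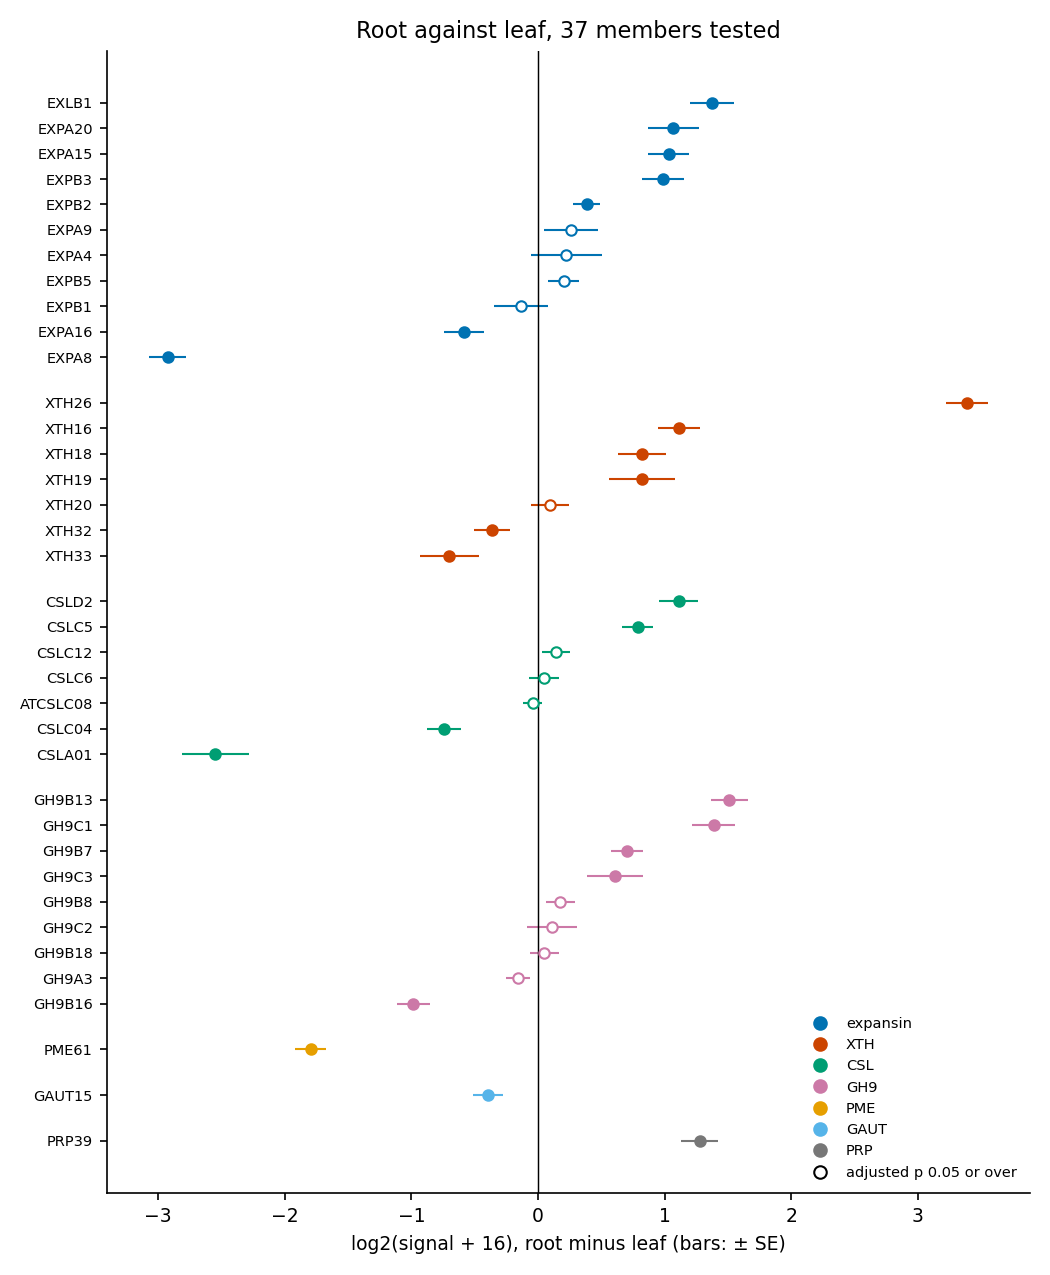
Difference in log2(signal + 16), root minus leaf, for the 37 tested members by family, with SE (12 arrays per organ); filled points passed an adjusted p of 0.05. XTH26 lies farthest to the right at 3.39 and EXPA8 farthest to the left at -2.92.

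Among the expansins, EXPA8 (255822_at) fell the most in roots. Its lowest, median and highest signals were 8.66, 23.4 and 36.3 over the 12 root arrays, against 151, 290 and 674 over the 12 leaf arrays. The organs did not overlap, and the log2 difference was -2.92 (SE 0.15, adjusted p = 1.67e-13). EXLB1 (245463_at), an expansin-like protein of the B subfamily, ran the other way. Its root signals were 130, 223 and 398, against 39.5, 84.0 and 123 in leaves, a log2 difference of 1.38 (SE 0.17, adjusted p = 4.52e-07) with no array in common range. Those 2 were the only expansins whose organs did not overlap.

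The other expansin calls, named after their values were seen, overlapped between organs. EXPA15 averaged 304.5 ± 152 in roots and 129 ± 31.1 in leaves (SD, n = 12 each), a log2 difference of 1.03, with its 2 highest root arrays on high zinc. EXPA20 (1.07), EXPB3 (0.99) and EXPB2 (0.38) also rose in roots, and EXPA16 fell (-0.59). EXPA4, EXPA9, EXPB1 and EXPB5 did not pass, at log2 differences of 0.22, 0.26, -0.13 and 0.20. Without leaf replicate 3, EXPB1 fell in roots (-0.45, adjusted p = 0.0195).

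XTH26 (253763_at) had the widest organ contrast of all members on the scale used here. It is known from root hairs of A. thaliana. Its signals were 68.2, 172 and 373 over root arrays, against 1.08, 2.92 and 4.21 over leaf arrays, so even the dimmest root array was many times brighter than the brightest leaf array. The log2 difference was 3.39 (SE 0.17, adjusted p = 1.13e-13) with 16 added to each signal. Because the leaf signals were so low, the size depended on that offset: adding 1 in place of 16 gave 5.60, and adding 64 gave 1.90. With 64 added, EXPA8 (-1.98) was wider than XTH26 and CSLA01 (-1.90) as wide.

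The remaining XTH calls, all named after their values were seen, had overlapping organs. XTH16 averaged 157 ± 60.0 in roots and 61.4 ± 15.8 in leaves (SD, n = 12 each), a log2 difference of 1.11 (SE 0.16). XTH18 and XTH19, close paralogues of each other in A. thaliana, rose by 0.82 each (adjusted p = 0.000626 and 0.00905). Whether the probes separate them in A. halleri was not tested. XTH19 was dim, with median signals of 33.4 in roots and 10.2 in leaves. The size for XTH19 depended on the offset: 1.59 with 1 added in place of 16, and 0.38 with 64 added. XTH18 gave 0.48 with 64 added. XTH33, whose protein is anchored in the membrane in A. thaliana, fell in roots by 0.70 on the log2 scale (adjusted p = 0.0115), and 1 leaf array reached 642 where the other 11 stayed at 239 or less. XTH32, from the subgroup whose members can hydrolyse xyloglucan, fell by 0.37 (adjusted p = 0.0275). That call was lost when any of 5 single arrays was left out, with adjusted p between 0.0528 and 0.0573. XTH20 did not pass (0.10, SE 0.15).

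The CSL genes differed in direction, and CSLA01 and CSLD2 were the only tested members of their subfamilies. CSLA01 (245465_at), a mannan synthase gene, had signals of 20.2, 44.8 and 58.5 over root arrays and of 158, 281 and 1038 over leaf arrays. The organs did not overlap and the log2 difference was -2.55 (SE 0.26, adjusted p = 2.46e-08). CSLD2, needed for sound root hairs in A. thaliana, had the opposite bias: it averaged 808 ± 176 in roots and 385 ± 159 in leaves (SD, n = 12 each), a log2 difference of 1.11 with overlap. All 5 tested CSLC genes belong to the xyloglucan backbone subfamily, and they did not move together. CSLC5 rose in roots (0.79, SE 0.12), CSLC04 fell (-0.75, SE 0.13), and CSLC6, CSLC12 and ATCSLC08 did not pass, at 0.04, 0.14 and -0.04. CSLC04 signals were 108, 148 and 257 in roots against 190, 271 and 392 in leaves, and CSLC5 signals were 162, 221 and 323 in roots against 80.0, 117 and 195 in leaves. In each of the 4 bulk and medium combinations CSLC5 was higher in roots and CSLC04 lower. CSLD2, CSLC5 and CSLC04 were named after their values were seen.

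Of the endoglucanases, 4 rose in roots and 1 fell. GH9B13 (255517_at) had signals of 153, 228 and 434 over root arrays and of 42.6, 75.7 and 104 over leaf arrays, with no overlap and a log2 difference of 1.51 (SE 0.15, adjusted p = 9.78e-09). GH9C1 (260758_at), whose class carries a cellulose-binding module, had 55.7, 93.8 and 164 in roots against 9.65, 26.5 and 52.2 in leaves, a log2 difference of 1.39 (SE 0.17). Both lay above leaves in all 12 root arrays. GH9B7 (0.70) and GH9C3 (0.61) rose with overlap and were named after their values were seen; GH9C3 did not pass with a pseudocount of 1 (adjusted p = 0.0587). GH9B16 (252919_at) was the one that fell. Its root signals were 6.10, 15.5 and 31.4, against 35.0, 51.3 and 62.8 in leaves, a log2 difference of -0.98 (SE 0.13, adjusted p = 9.77e-07). The size for GH9B16 depended on the offset: -1.53 with 1 added in place of 16, and -0.48 with 64 added. GH9A3, of the membrane-anchored KORRIGAN class, GH9B8, GH9B18 and GH9C2 did not pass, with differences between -0.16 and 0.18. GH9A3 was called lower in roots after quantile normalization, median centring or array weights (-0.22 under each), and GH9B8 higher with array weights (0.25).

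The 2 pectin genes among the members, PME61 and GAUT15, fell in roots. In the list of other pectin genes given further below, 1 rose and 1 fell. PME61 (251509_at) had signals of 36.8, 60.1 and 87.1 over root arrays against 173, 259 and 350 over leaf arrays. No arrays overlapped, and the log2 difference was -1.79 (SE 0.12, adjusted p = 3.20e-11), between -2.02 and -1.57 in the 4 bulk and medium combinations. GAUT15, named after its values were seen, fell by 0.40 on the log2 scale (SE 0.12), with overlapping ranges of 54.5 to 116 in roots and 88.8 to 157 in leaves. The splicing gene PRP39 (265036_at) had 143, 254 and 306 in roots against 22.8, 103 and 130 in leaves, a log2 difference of 1.28 (SE 0.14) with no overlap.

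In all, 5 members lay wholly above and 4 wholly below leaf arrays in roots, where 11.1% and 9.17% of all 14399 probe sets tested did so. Without the splicing gene, 4 lay wholly above. AUR1, a marker of dividing cells, was also higher in roots (143 to 325, against 80.6 to 135 in leaves, log2 difference 0.77), and the part of dividing cells in the differences above was not tested. The pseudocount moved the size of 10 of the 25 called differences by more than 1.5 times. No called difference changed direction under the scalings, filters and offsets in which its gene was still tested, and the 75th percentile filter left 19 members to test.

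**Figure D3:**
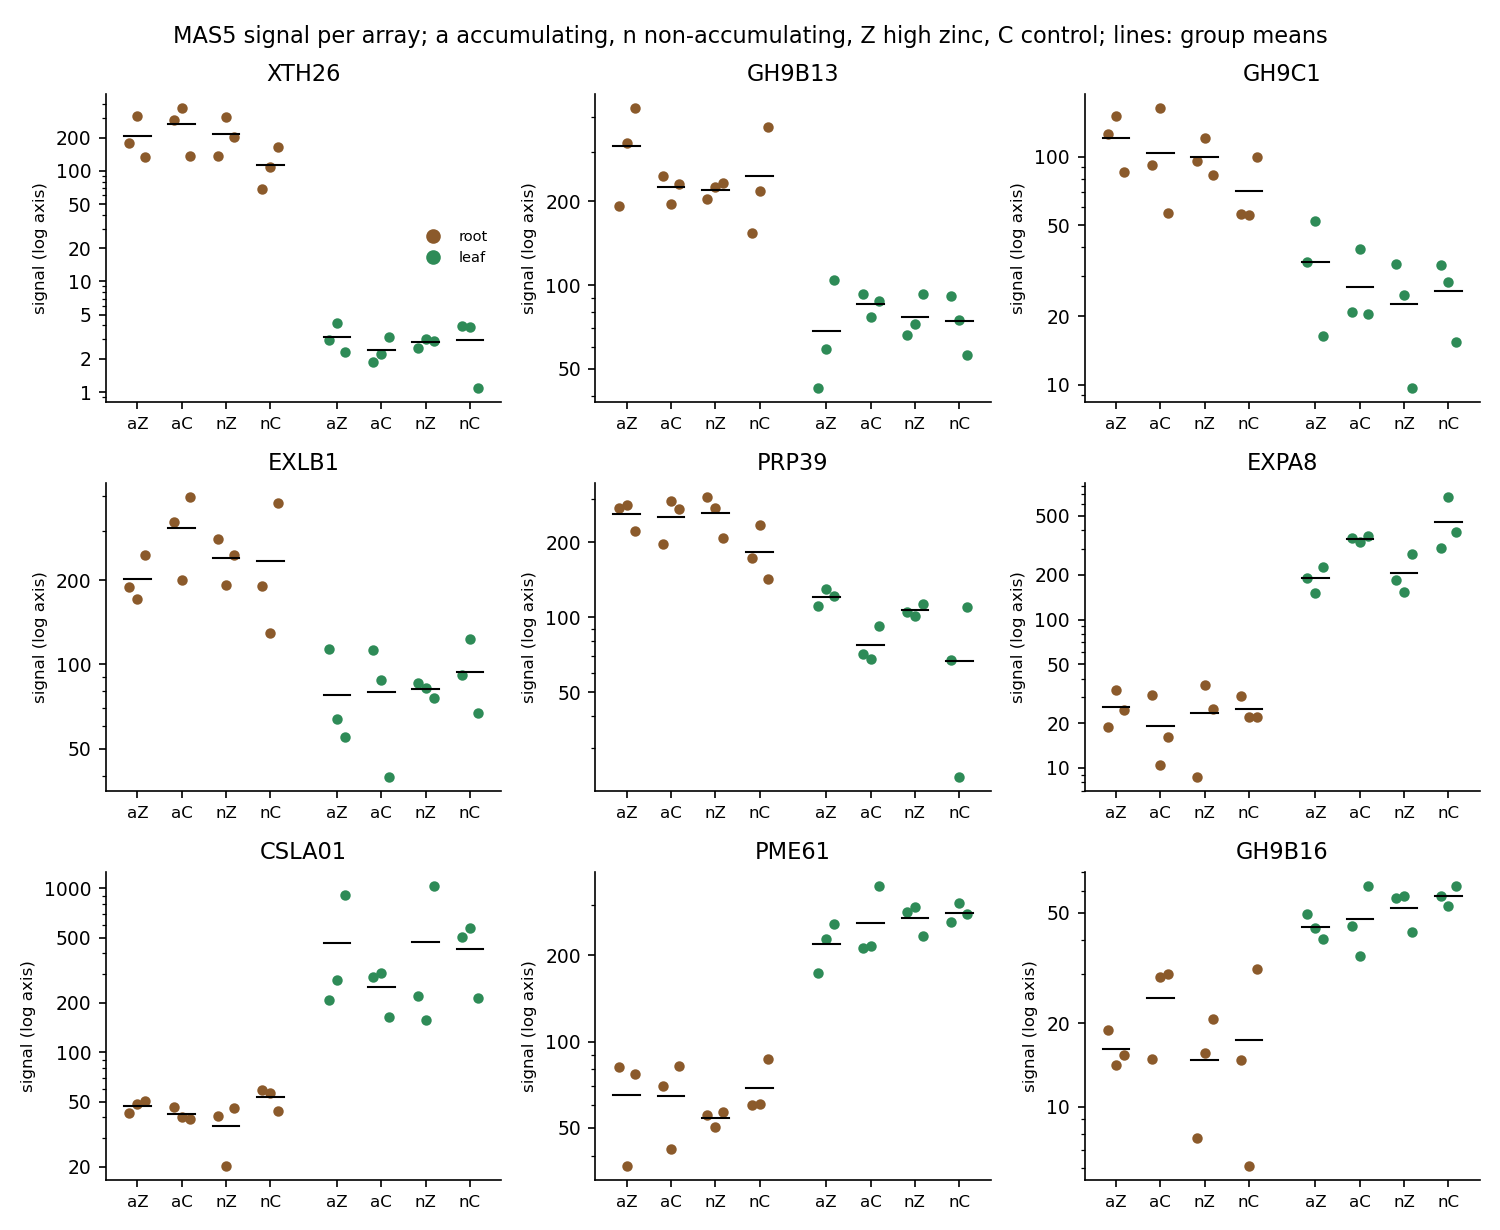
MAS5 signal (log axis, scaled per panel) of the 9 members whose root and leaf arrays do not overlap, by array, with root groups left of leaf groups; lines are group means. XTH26 spans 68.2 to 373 in roots against 1.08 to 4.21 in leaves, and EXPA8 spans 8.66 to 36.3 in roots against 151 to 674 in leaves.

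Accumulating and non-accumulating bulks did not differ past the threshold in any member. In roots, 0 of 32 tested members were called (limma), against 0% of 12489 probe sets, and 1 member and 862 probe sets had an unadjusted p under 0.05. In leaves, 0 of 30 were called, against 0% of 12685, with 1 member and 546 probe sets at an unadjusted p under 0.05. The values below are for the members with the lowest p and did not pass.

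In roots those members were all expansins. EXPA9 had 179, 139 and 204 in accumulating high-zinc roots and 142, 187 and 129 in accumulating control roots, against 270, 390 and 182 in non-accumulating high-zinc roots and 178, 206 and 152 in non-accumulating control roots. The non-accumulating high-zinc group held the 2 highest arrays, and the bulk difference was -0.40 (SE 0.17, adjusted p = 0.711). EXPA15 and EXPA20 had bulk differences of 0.52 (SE 0.25) and 0.51 (SE 0.26). Without a single non-accumulating array each was smaller: 0.33 for EXPA15 without control replicate 3, and 0.29 for EXPA20 without high-zinc replicate 1. The 6 tested CSL genes had bulk differences in roots between -0.10 and 0.12.

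In leaves, GH9B7 (log2 difference -0.49, SE 0.21), GH9A3 (-0.28, SE 0.13) and EXPB1 (-0.59, SE 0.33) had the lowest p, all with adjusted p = 0.999. EXPB1 was nearer 0, at -0.36, without replicate 3 of the accumulating control, and at -0.39 without the second non-accumulating control array. GH9B7 averaged 225 in accumulating leaves and 325 in non-accumulating leaves. Without replicate 3 these differences were -0.50, -0.26 and -0.62, and none passed. Of the 30 tested members, 25 (83.3%) had a negative bulk difference in leaves, against 55.5% of all probe sets tested. All 7 tested GH9 genes were among the 25. The median was -0.18 over the members and -0.03 over all probe sets tested. The members were read from the same arrays and are not independent of each other, so this count is no test of the bulks. Without replicate 3, 0 members passed, against 0.00758% of 13188 probe sets. In that fit 4 members and 1495 probe sets had an unadjusted p under 0.05. Of the 33 members tested there, 26 had a negative difference. The count depended on the scaling: 22 of 30 were negative after quantile normalization (52.1% of all probe sets) and 20 of 30 after median centring (44.8%), where the median was -0.13 over the members and 0.02 over all probe sets. The 6 photosynthesis markers had a median bulk difference of -0.35 in leaves and none passed; their part in the member differences was not tested. In roots the median bulk difference of the members was 0.04. The organ by bulk interaction sets the bulk difference in roots against that in leaves. It passed for 0 of 37 members, against 0% of 14399 probe sets. At an unadjusted p under 0.05 were 372 probe sets and 2 members, GH9B7 (0.66, SE 0.25) and GH9B8 (0.51, SE 0.23). Without leaf replicate 3 they were 0.67 and 0.44.

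Zinc in roots likewise passed for 0 of 32 members, against 0% of 12489 probe sets, with 1 member and 854 probe sets at an unadjusted p under 0.05. CSLC5, the xyloglucan synthase gene that was higher in roots, had the lowest p. It had 323, 246 and 272 in accumulating high-zinc roots, against 230, 187 and 162 in accumulating control roots. In the non-accumulating bulk it had 173, 290 and 276 in high-zinc roots, against 169, 212 and 180 in control roots. In the accumulating bulk every high-zinc array lay above every control array, while in the other bulk 1 high-zinc array lay within the control range. The separation in the accumulating bulk held for 1 of 32 members, against 4.65% of 12489 probe sets. The zinc difference over both bulks was 0.43 (SE 0.14, adjusted p = 0.609). EXPA9 (0.36, or 0.23 without its highest array, at 390) and PRP39 (0.27) followed.

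Within single bulks, the widest zinc differences in roots were those of 2 expansins, EXPA4 in the non-accumulating and EXPA15 in the accumulating bulk, in opposite directions. EXPA4 (267590_at) had 8.04, 59.7 and 62.5 in non-accumulating high-zinc roots, against 132, 128 and 160 in non-accumulating control roots. Every high-zinc array lay below every control array, and the log2 difference was -1.57 (SE 0.44, adjusted p = 0.457). Without replicate 1 on high zinc, the array at 8.04, the difference was -1.01. In this comparison 2 of 32 members lay wholly below, against 6.49% of 12489 probe sets. In the accumulating bulk EXPA4 had 126, 230 and 108 on high zinc, against 132, 47.1 and 137 on control medium, with overlap and a log2 difference of 0.54 (SE 0.44). EXPA15 (266770_at) had 315, 604 and 553 in accumulating high-zinc roots, against 330, 235 and 159 in accumulating control roots. Here 1 control array lay above the lowest high-zinc array, and the log2 difference was 0.98 (SE 0.35, adjusted p = 1.00). In the non-accumulating bulk EXPA15 had 138, 204 and 216 on high zinc, against 402, 339 and 159 on control medium (-0.57, SE 0.35).

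On high zinc alone, the accumulating arrays of both genes lay above the non-accumulating arrays, by 1.64 (SE 0.44) for EXPA4 and by 1.30 (SE 0.35) for EXPA15, each with adjusted p = 0.569. Such a separation held for 3 of 32 members and 5.85% of 12489 probe sets, and EXPA4 gave 1.08 without replicate 1 of the non-accumulating bulk. The bulk by zinc interaction in roots passed for 0 of 32 members, against 0% of 12489 probe sets. At an unadjusted p under 0.05 were 2 members and 470 probe sets. The interaction was 2.11 (SE 0.63) for EXPA4 and 1.55 (SE 0.49) for EXPA15, both with adjusted p = 0.998. Neither the differences nor their contrast between bulks passed over all probe sets. Without the control root array whose source name was halleri, the interaction was 2.14 for EXPA4 and 1.31 for EXPA15. XTH26 had an interaction of -1.13 (SE 0.57), with its lowest group mean in non-accumulating control roots: 286, 373 and 135 in accumulating control roots, against 68.2, 108 and 165 there.

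**Figure D4:**
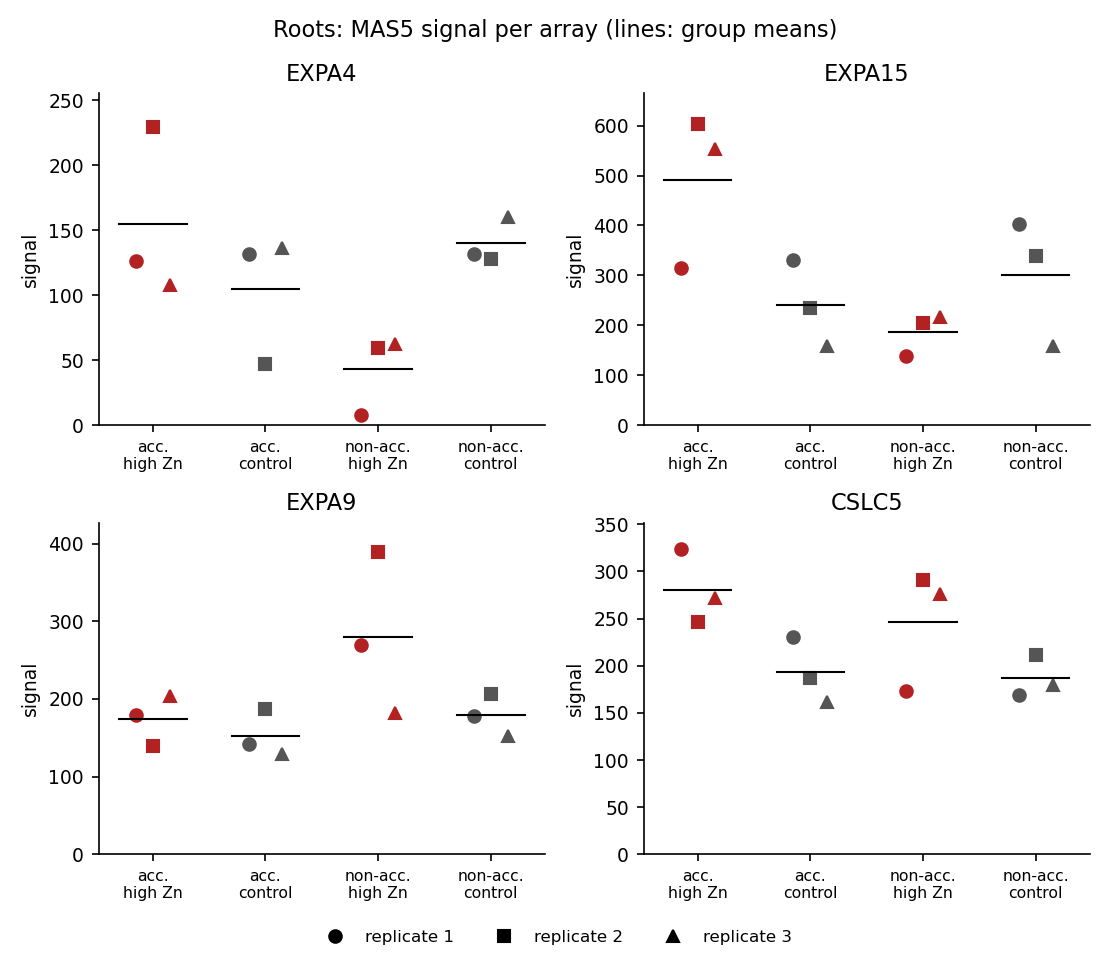
MAS5 signal of EXPA4, EXPA15, EXPA9 and CSLC5 in the 12 root arrays, by group; lines are group means and symbols give the replicate number. For EXPA4 the non-accumulating high-zinc arrays (8.04 to 62.5) lie below the control arrays of that bulk (128 to 160).

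In leaves, the count of zinc calls differed with and without replicate 3. With all 12 leaf arrays, 0 of 30 members were called, against 0.0315% of 12685 probe sets (0.00788% higher and 0.0236% lower), while 3 members and 1190 probe sets had an unadjusted p under 0.05. Without replicate 3, 5 of 33 tested members were called, or 15.2%, against 9.24% of 13188 probe sets. Without the splicing gene it was 4 of 32. Replicate 3 stood apart in these same arrays, and leaving it out was chosen with earlier results of these data known. The calls without it depend on that choice. Only replicates 1 and 2 of each leaf group remained in that fit. EXPA8, CSLA01 and XTH32 fell with zinc and CSLD2 and PRP39 rose. In those 8 arrays the photosynthesis genes moved too: their summed signal was 7133 to 10373 on high zinc and 15264 to 20824 on control medium, and 4 of the 6 fell. Their part in the member differences was not tested.

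EXPA8, the leaf expansin, showed its difference in all arrays. It had 192, 151 and 227 in accumulating high-zinc leaves, against 352, 333 and 368 in accumulating control leaves. In the non-accumulating bulk it had 184, 153 and 276 in high-zinc leaves, against 303, 674 and 388 in control leaves. All 6 high-zinc arrays lay below all 6 control arrays, at a log2 difference of -0.95 (SE 0.21, adjusted p = 0.208). Such a separation held for 1 of 30 members, against 0.560% of 12685 probe sets. Without replicate 3 the difference was -1.15 (SE 0.23, adjusted p = 0.0153). In 1 fit of all 24 arrays, which shares the spread of both organs, EXPA8 also passed at the same difference (adjusted p = 0.0322).

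CSLD2 and PRP39 differed in the opposite direction. CSLD2 had 685, 479 and 209 in accumulating high-zinc leaves, against 312, 217 and 237 in accumulating control leaves. In the non-accumulating bulk it had 508, 633 and 352, against 377, 318 and 291. In both bulks replicate 3 was the lowest high-zinc array. The log2 difference was 0.61 (SE 0.26, adjusted p = 0.496) with all arrays and 0.89 (SE 0.19, adjusted p = 0.0190) without replicate 3. PRP39 gave 0.64 (SE 0.23, adjusted p = 0.404) with all arrays and 0.87 (SE 0.22, adjusted p = 0.0368) without replicate 3, and 1 control array of the non-accumulating bulk was low at 22.8. Without that array alone the difference was 0.41.

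CSLA01 reversed between the replicate numbers. It had 208, 275 and 913 in accumulating high-zinc leaves, against 288, 302 and 163 in accumulating control leaves. In the non-accumulating bulk it had 221, 158 and 1038 in high-zinc leaves, against 502, 568 and 215 in control leaves. Replicate 3 was the highest array of each high-zinc group and the lowest of each control group. The log2 difference was 0.19 (SE 0.48, adjusted p = 0.943) with all arrays and -0.86 (SE 0.17, adjusted p = 0.0142) without replicate 3. XTH32 did the same on a smaller scale: -0.18 (SE 0.23) with all arrays and -0.63 (SE 0.16, adjusted p = 0.0348) without replicate 3. In high-zinc leaves its replicate 3 read 114 and 129, where the other 4 arrays lay between 51.3 and 65.0.

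**Figure D5:**
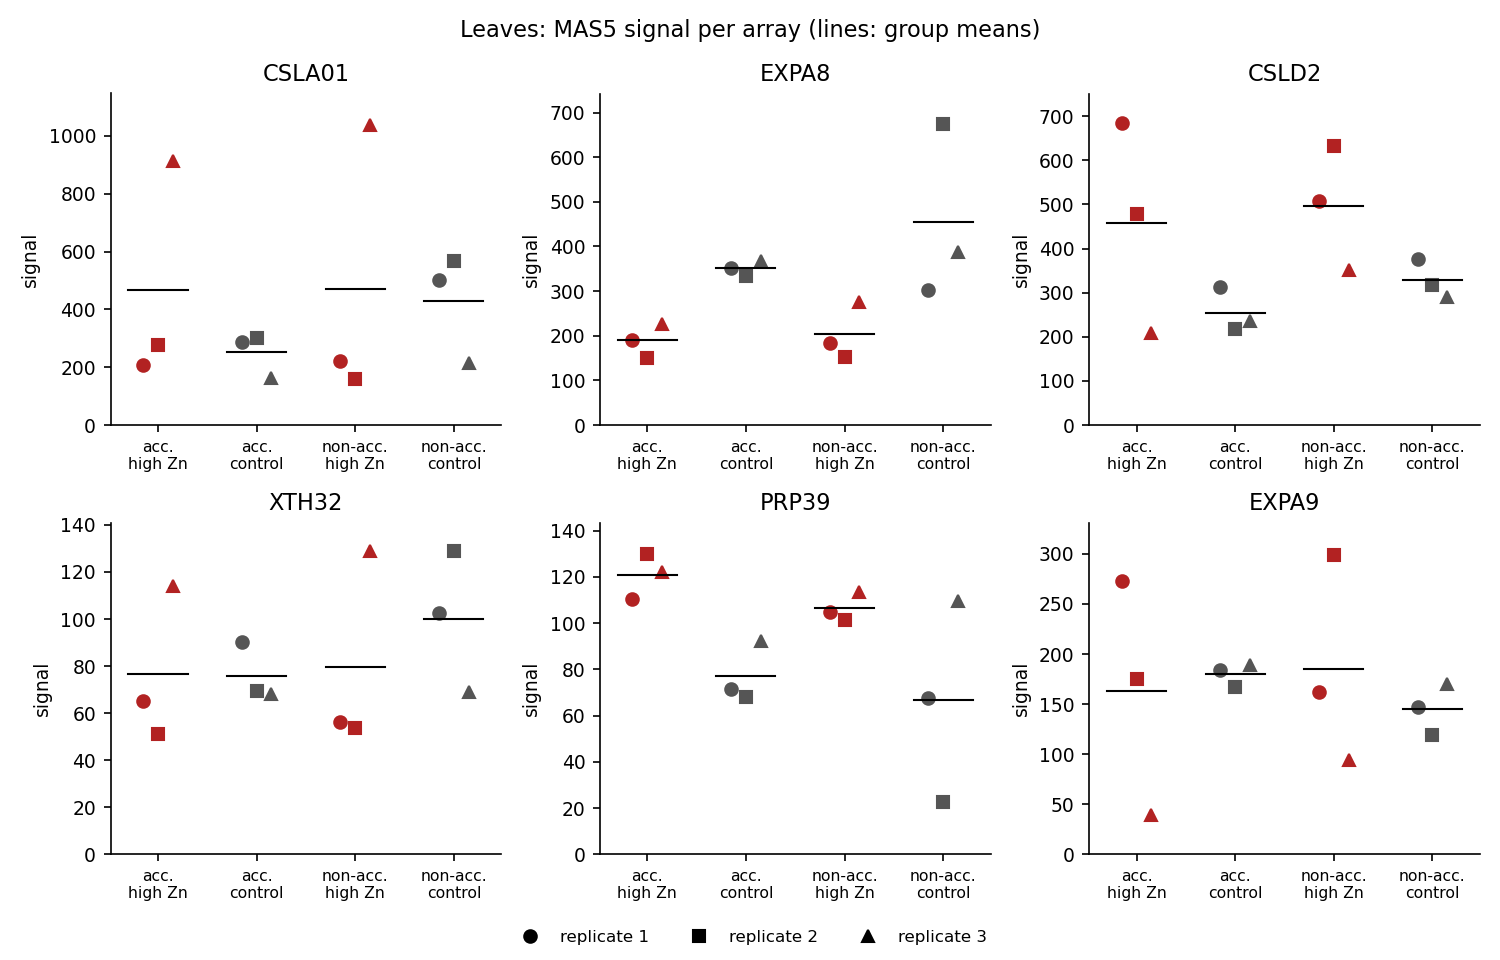
MAS5 signal of CSLA01, EXPA8, CSLD2, XTH32, PRP39 and EXPA9 in the 12 leaf arrays, by group; lines are group means and triangles mark replicate 3. For CSLA01 the triangles on high zinc (913 and 1038) lie above all other leaf arrays, while for EXPA8 all 6 high-zinc arrays lie below all 6 control arrays.

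The contrasts between organs and bulks added no call for zinc with all arrays. The organ by zinc interaction passed for 0 of 37 members, against 0.00694% of 14399 probe sets. At an unadjusted p under 0.05 were 933 probe sets and 1 member. That member was EXPA8 at 1.03 (SE 0.29, adjusted p = 0.480), followed by XTH20 at 0.58 and CSLD2 at -0.53, or -0.36 without its highest leaf array. Root signals of EXPA8, at 8.66 to 36.3, lay near the 16 added to every signal, which compresses differences there. Without leaf replicate 3 the EXPA8 interaction was 1.22 (SE 0.33, adjusted p = 0.0406), and 1 of 39 members was called, against 4.2% of 14756 probe sets. The bulk by zinc interaction in leaves passed for 0 of 30, against 0% of 12685. At an unadjusted p under 0.05 were 0 members and 197 probe sets. The member with the lowest p was EXPA4 (1.25, SE 0.83). That value was 0.75 without replicate 3 in all 4 groups, and 0.43 when only the non-accumulating high-zinc array of that number was left out.

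The 8 comparisons of 3 arrays against 3 called 0 members (limma). Zinc in non-accumulating leaves called 0.00788% of 12685 probe sets, and the other 7 called 0%. Between 0 and 3 members had an unadjusted p under 0.05 in each, as did between 343 and 1018 probe sets. Zinc differences in leaves were largest for EXPA8 in both bulks, at -0.85 (SE 0.30) in accumulating and -1.06 (SE 0.30) in non-accumulating leaves. The lowest p for a bulk difference in leaves, though not the widest difference, belonged on high zinc to ATCSLC08 (-0.28, 66.3 in accumulating and 83.7 in non-accumulating leaves) and on control medium to GH9B8 (-0.34, 59.1 in accumulating and 79.2 in non-accumulating leaves); the 3 accumulating arrays lay below the 3 non-accumulating arrays for both. On high zinc such a separation held for 2 of 30 members, against 3.81% of 12685 probe sets. On control medium it held for 3 of 30 members, against 5.01%. GH9B8 gave -0.20 when the second non-accumulating control array was left out. Without leaf replicate 3, only replicates 1 and 2 of each leaf group remained, and CSLA01 alone was called, in non-accumulating leaves. Zinc gave -1.44 there (SE 0.24, adjusted p = 0.0153), and the comparison called 3.09% of 13188 probe sets. Replicate 3 of that bulk gave 2.19 for CSLA01.

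Other wall genes were read from lists drawn up for the purpose, of which few members carried a single symbol. Among 4 of 8 helpers of cellulose synthesis, AT2G41770 and AT1G45688 rose in roots by 1.12 and 0.34 on the log2 scale, AT3G57420 fell by 0.34, and COB, which orients cellulose in expanding cells, did not pass (-0.11). Among 3 of 15 pectin genes, AT5G14650 averaged 149 ± 58.9 in roots and 24.1 ± 7.57 in leaves (SD, n = 12 each), a log2 difference of 1.98. AT5G06700 fell in roots by 0.54, a call lost without leaf replicate 3 (-0.33, adjusted p = 0.0717), and ADPG1 was too dim to test. HCT and CCR2 stood for 2 of 18 lignin genes and were matched by symbol, not by locus. They did not pass (0.28 and 0.44), nor did IRX15-L, 1 of the 2 of 28 secondary wall genes that were named. With zinc in leaves without replicate 3, CCR2 rose. No gene of these lists passed in any bulk or zinc comparison with all arrays, and no gene of the xyloglucan, nucleotide sugar or root hair wall lists carried a single symbol.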

How the data were processed

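The authors deposited linear MAS5 signal intensities for 22810 probe sets on 24 arrays; MAS5 is named in the submitters' processing notes, with no version or scaling target stated in the sources used here. The intensity mean after trimming 2% at each end was 100.0 on every array, so values were used as deposited. The 64 control probe sets were left out. Symbols came from the platform probe table: 13513 probe sets had 1, 503 several and 8730 none. No sequences or coordinates were used here. Arrays have no counting depth, so their number limits the precision.

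Tests were run in R 4.3.3 with limma 3.58.1. The values were log2(signal + 16), fitted with group means, a variance trend and Benjamini-Hochberg adjustment over all probe sets tested (threshold 0.05). A fold on this scale understates the change of dim genes. Testing was limited to probe sets whose highest group mean exceeded the median value of the arrays fitted. All 24 arrays entered the organ comparison and organ interactions; roots and leaves were otherwise fitted apart. Differences are root minus leaf, accumulating minus non-accumulating and high zinc minus control. Scripts were tested on simulated data.

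The members, gene lists and tests were chosen with earlier results of these data known. Named genes were, for organs, the members of each family whose arrays did not overlap (up to 3 in each direction), and elsewhere called members or the 3 with the lowest p; called members without leaf replicate 3 (up to 5 in each direction); and up to 3 called list members in each direction. Other members called between organs are marked as named after their values were seen. No such mark was put on other genes named outside these rules, such as members that did not pass. The lists, wall genes and markers of root, leaf, phloem, pollen and dividing cells, had few symbols; the pollen marker AT5G45880 was too dim to test and no phloem marker was named. Same-numbered arrays deviated together (r over 0.1) in 9 of 18 root pairs, 2 of 12 pairs across organs and 15 of 18 leaf pairs, including all 12 of numbers 2 and 3. Pairing would have needed every pair over 0.1, so no block entered the main tests. The alternatives were other pseudocounts (1 and 64), filters, scalings, weights and blocks, each array left out, and, added after seeing the data, terms for replicate 3. The fits without leaf replicate 3 were also chosen with earlier results of these data known.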

Additional observations from a re-analysis of the deposited data

Results flagged for a closer look

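In leaves, the zinc difference of 4 of 30 tested members differed between replicate 3 and replicates 1 and 2, tested as an interaction added after seeing the data (limma, adjusted over 12685 probe sets, of which 7.43% passed). The interaction was 3.14 for CSLA01 (SE 0.31, adjusted p = 6.24e-05), 1.32 for XTH32 (SE 0.27, adjusted p = 0.00920), 1.13 for EXPB1 (SE 0.30, adjusted p = 0.0397) and -1.80 for EXPA9 (SE 0.39, adjusted p = 0.0143). Each group holds 1 array of replicate 3, so these values compare 4 arrays with 8. For CSLA01 the log2 zinc difference was 2.38 in the accumulating and 2.19 in the non-accumulating bulk in replicate 3, against -0.28 and -1.44 in replicates 1 and 2. EXPA9 gave -1.88 and -0.75 in replicate 3, against 0.30 and 0.67. EXPB1 gave 0.56 and 0.51, against -0.44 and -0.75. The photosynthesis markers had the same kind of difference, with 4 of 6 passing the interaction. Apart from zinc, a replicate 3 term passed for 7 of 30 members in leaves (23.3%, against 22.8% of all probe sets), lower for EXPA4 (-1.25), EXPB1, EXPA16, EXLB1, EXPB5 and EXPB3 and higher for GH9B7 (0.58). In roots it passed for EXPB3 and GH9C2, both lower, against 1.56% of all probe sets.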

How the results depend on the processing

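The count of members called between organs lay between 24 and 26 when single arrays were left out and was 16 (10 higher, 6 lower) of 19 tested with the filter at the 75th percentile, where fewer genes were tested. The highest count was 27, without the filter or with array weights. Every other count stayed at 0 when single arrays were left out. For zinc in leaves, 5 members were called with array weights (CSLD2 and PRP39 higher; EXPA8, GH9B13 and XTH16 lower), or 16.7% against 19.1% of all probe sets tested; 5 without replicate 3 of the 4 leaf groups (15.2% against 9.24%); and 1 in 1 fit of all arrays (2.70% against 0.771%). The organ by zinc count was 1 with array weights (CSLD2; 2.70% against 7.94%) and 1 without replicate 3 (EXPA8; 2.56% against 4.2%). The 8 small comparisons together gave 5 with array weights (2.02% of tests against 2.25%) and 1 without replicate 3 (0.758% of the leaf tests against 1.19%). The cause was not tested.

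The zinc difference of CSLA01 in leaves, 0.19 with all arrays, turned negative with array weights (-0.59), without leaf replicate 3 (-0.86), and when replicate 3 alone was left out of the accumulating high-zinc (-0.12), non-accumulating high-zinc (-0.21) or non-accumulating control (-0.02) leaves. Over all single arrays left out it ran between -0.21 and 0.44. Of 1317 alternative values of the 38 called single-gene results, 1310 kept their call, 7 lost it (GH9C3, AT5G06700 and 5 of XTH32) and 0 reversed. With the replicate block, 25 members were called between organs (16 higher, 9 lower) and 0 in the other comparisons; 8 of 12 root arrays and 9 of 12 leaf arrays correlated best with their own number, a hint from the data and not from the design. Without the filter, GH9B12 and XTH21 were also called between organs. Signals near the median of the array limit what could be tested, and 15 members fell below it.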
